A study of Homo sapiens with 8 samples.

Results

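The genes described here are ATF4, the transcription factor at the centre of the integrated stress response, and 9 genes that work with it or downstream of it. The set was chosen by name, as the rows of the deposited table called ATF4, ATF3, ATF5, DDIT3, DDIT4, TRIB3, CHAC1, ASNS, SESN2 and CEBPB, and all 10 were found among its 13453 genes. RNA was sequenced from Jurkat cells, an established human T-cell acute lymphoblastic leukaemia (T-ALL) line, in which the adaptor protein CBAP (gene TMEM102) had been lowered or removed. The study has 4 conditions with 2 libraries each. In what is called the shRNA set here, sh-Ctrl cells carry a control short hairpin RNA and CBAP knockdown cells carry one against CBAP. In the CRISPR set, CBAP knockout cells lost the gene by CRISPR/Cas9, and CBAP-reconstituted cells are knockout cells into which CBAP was put back. Per the study's methods, the knockout cells express GFP and the reconstituted cells express CBAP fused to GFP. Both conditions of that set therefore share the knockout, and the stable lines were derived as selected or sorted clones. The labels do not say whether the libraries of a condition are separate clones or separate cultures, so p-values measure only the spread between these libraries, which may be technical.

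In the integrated stress response, kinases that sense amino acid shortage, unfolded proteins, viral RNA or heme shortage phosphorylate the translation factor eIF2. General translation falls, while the ATF4 messenger, which carries short upstream reading frames, is translated more. ATF4 protein then pairs with other bZIP (basic leucine zipper) factors and raises genes for amino acid synthesis and import, redox balance and, under lasting stress, cell death. ATF4 is therefore controlled to a large extent at translation, and the RNA values below do not measure its protein or the phosphorylation of eIF2.

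On GRCh37, the build named hg19 in the study's methods, the gene of ATF4 lies at chr22:39915700-39918688, that of ATF3 at chr1:212738676-212794119 and that of ATF5 at chr19:50431959-50437192, all on the plus strand. DDIT3 lies at chr12:57910371-57915520 on the minus strand, and CEBPB at chr20:48807367-48809205 on the plus strand. On the plus strand are also DDIT4 at chr10:74033678-74035794, TRIB3 at chr20:343479-378203, CHAC1 at chr15:41245160-41248710 and SESN2 at chr1:28586029-28609002. ASNS lies at chr7:97480989-97501854 on the minus strand. All 10 are annotated as protein coding in GENCODE, and the values are gene-level, over exons.

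Promoter sequence from RefSeq (GRCh38.p14) was matched by symbol for all 10 genes. ATF4 paired with a C/EBP factor is known to bind sites spelled TGATGNAA, and these letters were searched on both strands from 250 bases before to 50 bases after each start. They occurred in 3 of the 10 windows (30%), against 1270 of 35116 promoters in the whole table (3.62%). For each of the 10 genes only the first listed promoter was searched, while the 35116 count every promoter listed. Among other ATF4 target genes, searched in the same way, 10 of 36 had a match (27.8%). The matches lie in ASNS, CHAC1 and ATF3. In the CRISPR set below ASNS and CHAC1 rose past the threshold and ATF3 did not, while SESN2, DDIT4, TRIB3 and ATF4 rose past it without a match. Whether the letters bear on the RNA changes was not tested. The stretches around the matches are shown with the match in capitals.
ASNS, chr7:97872458-97872487, minus strand: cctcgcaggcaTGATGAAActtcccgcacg
CHAC1, chr15:40953251-40953280, plus strand, with the match read on the opposite strand: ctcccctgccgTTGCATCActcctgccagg
ATF3, chr1:212565205-212565234, plus strand: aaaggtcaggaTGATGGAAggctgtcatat
The match in ASNS ran from position -68 to -61 relative to the start, that in CHAC1 from -209 to -202 and that in ATF3 from -191 to -184. The 250 bases before the start of ASNS are given as a whole, since ASNS changed most.
ASNS, chr7:97872409-97872658, minus strand: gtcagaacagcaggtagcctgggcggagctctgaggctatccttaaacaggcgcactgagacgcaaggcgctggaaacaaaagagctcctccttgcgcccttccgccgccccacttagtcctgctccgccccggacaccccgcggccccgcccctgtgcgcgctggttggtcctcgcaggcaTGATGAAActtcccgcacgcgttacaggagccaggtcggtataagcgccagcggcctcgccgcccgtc
A match is a description of letters and not a measured binding site, and no match says only that the letters are not in this window.

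Values are FPKM, the number of sequenced fragments scaled to the exon length of the gene and to the size of the library, as the authors estimated them, so the sequencing depth behind a value is unknown. The FPKM of TMEM102 was 4.07 and 4.74 in sh-Ctrl cells, with lower values of 2.69 and 2.89 in CBAP knockdown cells. In knockdown cells its log2 fold change was -0.51 (limma with Benjamini-Hochberg adjustment, adjusted p = 0.0287), and it missed the threshold without sh-Ctrl replicate 2 (adjusted p = 0.0588). Both CBAP-reconstituted and both CBAP knockout libraries list TMEM102 at 0, which leaves no check of their labels by this gene. The values thus show no difference in CBAP RNA between these conditions, although the reconstituted cells are said to express CBAP fused to GFP. Why they are at 0 was not tested. The test on knockdown shares its spread with these libraries, whose zeros add none, so its adjusted p may be too low. Of 12 T cell markers 11 were in the table and 10 had an FPKM of at least 1 in every library. Among markers of other cells, 1 of 5 B cell, 0 of 5 myeloid, 1 of 5 erythroid and 2 of 4 epithelial genes were in the table, with summed FPKM of at most 22.5, 0, 4.25 and 2.53. FPKM summed to between 362082 and 434742 per library.

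The library sh-Ctrl replicate 1 stood apart from its partner at these genes. On the log2(FPKM + 1) scale, 5 of the 10 genes were higher there than in sh-Ctrl replicate 2 by more than 0.5, against 3.16% of all 11427 tested genes. These were CHAC1, ATF3, SESN2, ASNS and DDIT4. CHAC1 had FPKM of 15.8 in replicate 1 and 5.89 in replicate 2, a ratio of 2.68. Of the 46 other ATF4 target genes tested, 38 were higher in sh-Ctrl replicate 1 (82.6%, against 47.5% of all tested genes). None of the 10 genes differed by more than 0.5 between the libraries of CBAP knockdown, CBAP-reconstituted or CBAP knockout cells. The changes of the 10 genes in the shRNA set are therefore given with and without each of the sh-Ctrl libraries.

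**Figure D1:**
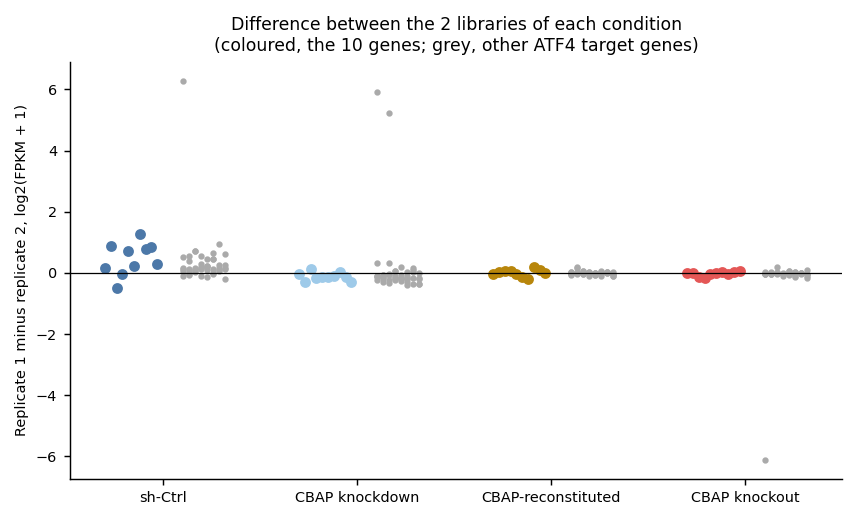
Difference in log2(FPKM + 1) between replicate 1 and replicate 2 of each condition, for the 10 genes (coloured) and the other ATF4 target genes tested (grey). The 5 highest coloured points, all above 0.5, are in sh-Ctrl cells. The 4 grey points beyond 5 in either direction belong to SLC7A1 and AARS, each listed at 0 in 1 library of the pair.

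Changes were tested with limma on log2(FPKM + 1), with a mean for each condition and Benjamini-Hochberg adjustment over 11427 genes, those whose FPKM averaged 1 or more across the libraries. A gene is said to have risen, fallen or passed where its adjusted p was under 0.05. An exact permutation test of 2 libraries against 2 cannot go below p = 0.33 and was not used.

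In the CRISPR set 6 of the 10 genes passed, all higher in CBAP knockout than in CBAP-reconstituted cells: ASNS, CHAC1, SESN2, DDIT4, TRIB3 and ATF4. Of all tested genes 49.9% passed in this comparison and 23.9% passed as higher. In the shRNA set only ATF5 passed, lower in CBAP knockdown cells, where 12.3% of all tested genes passed and 8.70% passed as lower. The median log2 fold change of the 10 genes was 0.54 in the CRISPR set and -0.18 in the shRNA set, beside 0 and -0.06 over all tested genes. None of the 10 genes passed in both sets, and ATF3, DDIT3 and CEBPB passed in neither. The share of all tested genes that passed in both sets or in neither was not computed, so these counts only describe the 10 genes. In the CRISPR set the summed FPKM of the T cell markers was 1550 and 1539 in reconstituted cells and 2002 and 2446 in knockout cells. That of the only B cell marker in the table was 0.732 and 1.09 against 9.60 and 9.91, and the part of such differences between the lines in the changes was not tested. In bulk RNA, fewer cells that express a gene and less RNA of it per cell cannot be told apart.

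**Figure D2:**
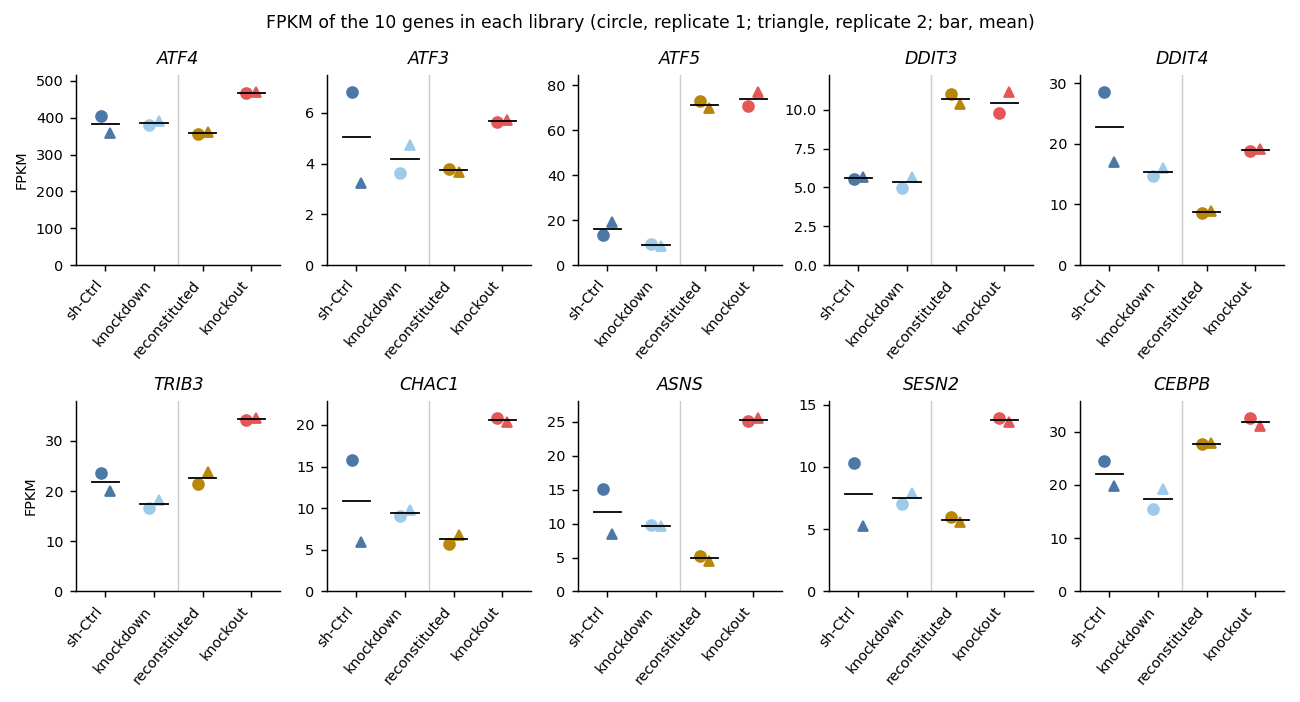
FPKM of each of the 10 genes in all 8 libraries, on a linear axis from 0, with circles for replicate 1, triangles for replicate 2 and a bar for the mean of the condition. The vertical line parts the shRNA set (left) from the CRISPR set (right). In 6 panels (ATF4, DDIT4, TRIB3, CHAC1, ASNS and SESN2) the knockout libraries lie above the reconstituted ones and passed the test, and sh-Ctrl libraries lie far apart in several panels.

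ATF4 was the most abundant of the 10 genes in every library, and by its mean FPKM of 399 over all libraries it ranked 99 of 13453. The FPKM of ATF4 was 404 and 360 in sh-Ctrl, 381 and 391 in CBAP knockdown, 356 and 361 in CBAP-reconstituted and 466 and 470 in CBAP knockout cells. The knockout libraries lay above all other libraries, while the other 3 conditions overlapped with their neighbours in the order of means. From reconstituted to knockout cells ATF4 rose by 0.38 on the log2 scale (SE 0.064, adjusted p = 0.00502), a ratio of mean FPKM of 1.31. The log2 fold change of ATF4 in the shRNA set was 0.02 (SE 0.064, adjusted p = 0.894), with overlapping libraries. It was 0.10 without sh-Ctrl replicate 1 and -0.07 without sh-Ctrl replicate 2. Quantile normalization gave 0.78 in place of 0.38 in the CRISPR set, more than 1.5 times the value. Processed copies of ATF4 are annotated at 4 other places in the genome (ATF4P1 to ATF4P4), and how reads were shared with them is not given in the sources used here.

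None of the 4 other transcription factors, all of the bZIP family, passed in the CRISPR set. ATF5, whose messenger is also translated under eIF2 phosphorylation, had FPKM of 13.4 and 19.1 in sh-Ctrl cells and of 9.29 and 8.41 in knockdown cells. Both knockdown libraries lay below both controls, and ATF5 fell by 0.79 on the log2 scale (SE 0.159, adjusted p = 0.0329). The fall was 1.03 without sh-Ctrl replicate 1 (log2 fold change -1.03, adjusted p = 0.0137) and 0.55 without sh-Ctrl replicate 2 (log2 fold change -0.55, adjusted p = 0.0418). ATF5 missed the threshold when any library other than those of sh-Ctrl was left out, with adjusted p between 0.0536 and 0.0892, and also in a fit of the shRNA set alone (adjusted p = 0.214). The FPKM of ATF5 was 73.3 and 69.7 in reconstituted and 70.8 and 77.1 in knockout cells. These overlap, and the log2 fold change was 0.05 (SE 0.159, adjusted p = 0.837).

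The FPKM of ATF5 in each library of the CRISPR set was thus above that in each library of the shRNA set. DDIT3 showed the same order, with FPKM of 5.53 and 5.69 in sh-Ctrl, 4.99 and 5.69 in knockdown, 11.01 and 10.4 in reconstituted and 9.77 and 11.1 in knockout cells. DDIT3 encodes CHOP, a factor of stress-induced cell death. Its log2 fold change was -0.06 in the shRNA set (SE 0.092, adjusted p = 0.688; -0.08 and -0.05 without sh-Ctrl replicate 1 and 2) and -0.03 in the CRISPR set (SE 0.092, adjusted p = 0.807). Levels of the sets were not compared by a test, since the sources used here do not say whether the sets were quantified together and the lines were made in different ways. The values carry more digits in the shRNA set. Of the 13453 genes, 1182 to 1256 were listed at 0 per library of the shRNA set and 606 to 820 in the CRISPR set. Why the sets differ in this was not tested, so orders and profiles across both sets are descriptions. In GENCODE, 27.2% of the exon bases of DDIT3 overlap MARS1 on the opposite strand, and 19.5% of those of ATF5 overlap NUP62 on the opposite strand. Whether the counting used strand is not given in the sources used here, so these values may hold reads of the neighbours.

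ATF3, a factor induced early in many stresses, was the lowest of the 10 genes in 7 of the 8 libraries. Its FPKM was 6.83 and 3.26 in sh-Ctrl, 3.64 and 4.75 in knockdown, 3.81 and 3.67 in reconstituted and 5.66 and 5.72 in knockout cells. The sh-Ctrl libraries enclosed those of all 3 other conditions. The knockout libraries lay above the reconstituted ones with a log2 fold change of 0.50 (SE 0.283), which did not pass (adjusted p = 0.194). The spread behind this test is shared by the 4 conditions, and the adjusted p was 0.0261 without sh-Ctrl replicate 1, 0.0260 without replicate 2 and 0.00269 in a fit of the CRISPR set alone. The log2 fold change of ATF3 on knockdown was -0.16 (adjusted p = 0.748), which became 0.28 without sh-Ctrl replicate 1 and -0.60 without replicate 2.

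CEBPB, a C/EBP factor that pairs with ATF4, had FPKM of 24.4 and 19.7 in sh-Ctrl, 15.4 and 19.3 in knockdown, 27.6 and 27.8 in reconstituted and 32.5 and 31.0 in knockout cells. No condition overlapped its neighbour in the order of means, and the order ran from knockout through reconstituted and sh-Ctrl to knockdown cells. The log2 fold change was 0.19 in the CRISPR set (SE 0.135, adjusted p = 0.284) and -0.33 in the shRNA set (SE 0.135, adjusted p = 0.170), and neither passed. The latter was -0.18 without sh-Ctrl replicate 1 and -0.48 without replicate 2. In a fit of the CRISPR set alone the first passed (adjusted p = 0.0144). An antisense transcript, CEBPB-AS1, overlaps 12.6% of the exon bases of CEBPB.

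ASNS, asparagine synthetase, makes asparagine from aspartate and glutamine, and had the highest ratio of the 10 genes. Its FPKM was 5.28 and 4.44 in reconstituted and 25.1 and 25.5 in knockout cells. Means were 4.86 ± 0.594 and 25.3 ± 0.318 (SD, n = 2 each), a ratio of 5.21. On the log2 scale ASNS rose by 2.17 (SE 0.242, adjusted p = 0.00119), and it passed in all 18 alternatives to the processing that were run. The FPKM of ASNS was 15.1 and 8.42 in sh-Ctrl and 9.78 and 9.65 in knockdown cells, so that knockdown lay between the controls. The log2 fold change there was -0.20 (SE 0.242, adjusted p = 0.621). It turned to 0.19 without sh-Ctrl replicate 1 and was -0.59 without replicate 2, where it passed (adjusted p = 0.0461). All 4 libraries of the shRNA set lay between the reconstituted and the knockout libraries. A long non-coding RNA on the same strand shares 49.3% of the exon bases of ASNS in GENCODE release 44, and pseudogenes of ASNS are annotated elsewhere, so the split of reads among them is uncertain.

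CHAC1, an enzyme that degrades glutathione and is a late target of the pathway, showed the same order of conditions as ASNS. Its FPKM was 15.8 and 5.89 in sh-Ctrl, 9.06 and 9.74 in knockdown, 5.74 and 6.77 in reconstituted and 20.8 and 20.3 in knockout cells. The ratio of knockout to reconstituted cells was 3.29, and CHAC1 rose by 1.58 on the log2 scale (SE 0.390, adjusted p = 0.0194). The SE is the largest of the 10 genes and holds the gap between the sh-Ctrl libraries. CHAC1 no longer passed without either reconstituted or either knockout library (adjusted p between 0.0690 and 0.0999), with values from 1.47 to 1.68. On knockdown the log2 fold change was -0.05 (adjusted p = 0.961), 0.59 without sh-Ctrl replicate 1 (adjusted p = 0.0547) and -0.69 without replicate 2 (adjusted p = 0.0396). The direction of CHAC1 in the shRNA set thus rested on which control library was used.

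SESN2, a sestrin that holds back the kinase complex mTORC1 when leucine is short, had FPKM of 10.3 and 5.28 in sh-Ctrl and of 7.04 and 7.90 in knockdown cells. It had 5.96 and 5.57 in reconstituted and 13.9 and 13.6 in knockout cells. It rose by 1.12 on the log2 scale in the CRISPR set (SE 0.261, adjusted p = 0.0156), a ratio of 2.38. Without any one library of the CRISPR set it missed the threshold, with adjusted p between 0.0588 and 0.0829. Its log2 fold change on knockdown was 0.01 (adjusted p = 0.998), and it was 0.43 and -0.42 without sh-Ctrl replicate 1 and 2 respectively.

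DDIT4, also called REDD1, likewise restrains mTORC1 and responds to low oxygen and glucocorticoids besides ATF4. Its FPKM was 28.6 and 17.0 in sh-Ctrl, 14.6 and 16.0 in knockdown, 8.55 and 8.86 in reconstituted and 18.8 and 19.2 in knockout cells. Unlike ASNS, CHAC1 and SESN2, its highest mean was in sh-Ctrl cells, whose libraries enclosed those of knockout cells. From reconstituted to knockout cells DDIT4 rose by 1.04 (SE 0.222, adjusted p = 0.0115), a ratio of 2.18. It missed the threshold without reconstituted replicate 1 (adjusted p = 0.0655), reconstituted replicate 2 (0.0593) or knockout replicate 2 (0.0510). Both knockdown libraries lay below both controls, with a log2 fold change of -0.50 (SE 0.222) that did not pass (adjusted p = 0.199). It was -0.14 without sh-Ctrl replicate 1 and -0.86 without replicate 2, where it passed (adjusted p = 0.0147).

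TRIB3, a pseudokinase that binds AKT and feeds back on ATF4, had FPKM of 23.6 and 20.0 in sh-Ctrl, 16.6 and 18.3 in knockdown, 21.4 and 23.7 in reconstituted and 34.2 and 34.5 in knockout cells. The knockout libraries lay above and the knockdown libraries below all others. TRIB3 rose by 0.59 in the CRISPR set (SE 0.10, adjusted p = 0.00532), a ratio of 1.52, and passed in all 18 alternatives run. Knockdown gave a log2 fold change of -0.30 (SE 0.10, adjusted p = 0.110), and between -0.19 and -0.42 with either sh-Ctrl library left out. It passed in none of the alternatives there.

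**Figure D3:**
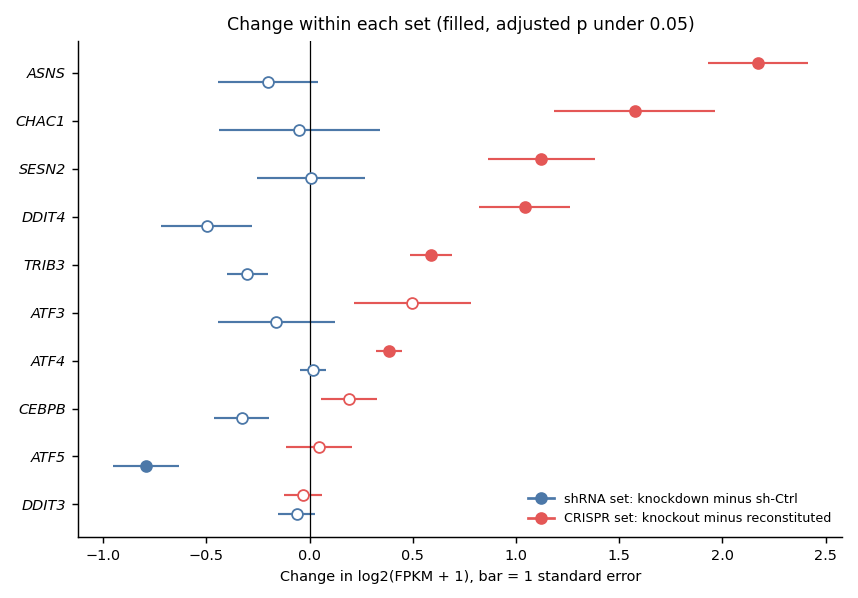
Change in log2(FPKM + 1) of the 10 genes in the shRNA set (blue, knockdown minus sh-Ctrl) and in the CRISPR set (red, knockout minus reconstituted), with bars of 1 standard error from limma and filled points for an adjusted p under 0.05. Filled red points run from 0.38 for ATF4 to 2.17 for ASNS, and the filled blue point is ATF5 at -0.79.

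The change in the shRNA set minus that in the CRISPR set was tested as a contrast of its own. It was below 0 for all 10 genes, beside 6169 of all 11427 tested genes. It passed for 5 of the 10: ASNS, DDIT4, TRIB3, ATF5 and ATF4. Of all tested genes 33.8% passed in this contrast and 18.3% passed below 0, and the median was -0.86 over the 10 genes and -0.05 over all tested genes. The difference was -2.37 for ASNS (SE 0.343, adjusted p = 0.00540), -1.54 for DDIT4 (SE 0.313, adjusted p = 0.0158) and -0.89 for TRIB3 (SE 0.142, adjusted p = 0.00725). ASNS and TRIB3 passed in all 17 alternatives run for this contrast. For ATF4 it was -0.37 (SE 0.091, adjusted p = 0.0291) and for ATF5 -0.84 (SE 0.225, adjusted p = 0.0363). With libraries scaled to the same median FPKM these became -0.24 and -0.72 and did not pass (adjusted p = 0.0944 and 0.0630). Quantile normalization gave -0.71 for ATF4. Over the 17 alternatives ATF4 passed in 10, ATF5 in 9 and DDIT4 in 14, and leaving out single libraries ended the call of ATF4 in 5 of the runs and that of ATF5 in 6. CHAC1 (-1.62, SE 0.551, adjusted p = 0.0705) and SESN2 (-1.12, SE 0.369, adjusted p = 0.0652) did not pass with all libraries. They passed when either sh-Ctrl library was left out, with values of -0.98 and -2.27 for CHAC1 and of -0.70 and -1.54 for SESN2. For DDIT3 the difference was -0.03 (SE 0.130, adjusted p = 0.869).

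The rest of the pathway was described by lists of genes, each beside all tested genes. Genes of these lists named below as changed in the shRNA set passed only with the spread shared across the 4 conditions, since in a fit of that set alone their adjusted p ran from 0.117 for XBP1 to 0.236 for EIF4EBP1. Upstream of ATF4, 17 of 18 genes for eIF2 kinases, eIF2 and its regulators were tested. Of these, 5 were higher and 9 lower in knockout cells (82.4%, against 49.9% of all tested genes, median log2 fold change -0.30). On knockdown 0 were higher and 2 lower (11.8%, close to the 12.3% of all tested genes, median -0.01). EIF2B3, a subunit of the exchange factor of eIF2, fell in both sets. Its FPKM was 28.0 and 23.5 in sh-Ctrl, 15.2 and 15.8 in knockdown, 25.6 and 25.8 in reconstituted and 8.33 and 8.87 in knockout cells. The fall of EIF2B3 was by 0.69 on the log2 scale in the shRNA set (adjusted p = 0.0124) and by 1.48 in the CRISPR set (adjusted p = 0.000167). EIF2AK4, the kinase GCN2 that senses amino acid shortage, fell by 0.48 in the shRNA set (adjusted p = 0.020), which missed the threshold without either sh-Ctrl library (adjusted p = 0.0686 and 0.0564), and had -0.16 in the CRISPR set (adjusted p = 0.134). PPP1R15A, or GADD34, which brings a phosphatase to eIF2, rose by 0.75 in the CRISPR set (adjusted p = 0.00564) and had -0.03 in the shRNA set.

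Among bZIP partners of ATF4, 9 of 10 genes were tested. Knockout cells had 4 higher and 2 lower (66.7%, against 49.9% of all tested genes, median 0.29), and in the shRNA set 0 were higher and 2 lower (22.2%, against 12.3%, median -0.29). JUND, an AP-1 subunit, had FPKM of 44.8 and 44.6 in sh-Ctrl, 33.4 and 29.5 in knockdown, 25.5 and 26.0 in reconstituted and 95.4 and 93.9 in knockout cells. JUND thus went down by 0.50 in the shRNA set (log2 fold change -0.50, adjusted p = 0.0126) and up by 1.84 in the CRISPR set (adjusted p = 2.61e-05). JUN, another AP-1 subunit, did likewise at low FPKM of 1.09 to 4.81, with -0.66 (adjusted p = 0.0197) and 0.67 (adjusted p = 0.00383). JDP2, a repressor of the same family, rose by 1.55 in the CRISPR set (adjusted p = 0.000512), from FPKM of 0.509 and 0.758 to 3.81 and 3.70. At such low FPKM the value depends on the pseudocount, and that of JDP2 was 2.41 with a pseudocount of 0.1 and 0.64 with one of 5.

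Of 50 other ATF4 target genes 46 were tested. Knockout cells had 17 higher and 3 lower (median 0.20). Both directions together made up 43.5%, against 49.9% of all tested genes. Taken by direction, 2734 of all 11427 tested genes passed as higher (23.9%) and 2963 as lower. Knockdown cells had 1 higher and 7 lower (17.4%, against 12.3% of all tested genes, median -0.08), where 8.70% of all tested genes passed as lower. By group, the CRISPR set held 2 higher and 1 lower of 11 genes of amino acid synthesis (median -0.02), 4 and 0 of 8 amino acid transporters (median 0.47), 3 and 0 of 11 tRNA synthetases (median 0.17), and 8 and 2 of 16 signalling and stress genes (median 0.27). The same groups in the shRNA set held 0 and 3 (median -0.33), 0 and 0 (median 0.03), 0 and 2 (median -0.04), and 1 and 2 (median 0.01). An unadjusted p under 0.05 was reached by 2 of the transporters in the shRNA set.

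In amino acid and one-carbon metabolism, MTHFD2, a mitochondrial folate enzyme, had FPKM of 64.9 and 68.6 in reconstituted and 189 and 194 in knockout cells, and rose by 1.51 on the log2 scale (adjusted p = 0.000627). PSAT1, of serine synthesis, rose by 0.49 (adjusted p = 0.0474), and missed the threshold without any one library of the CRISPR set (adjusted p between 0.12 and 0.167) and with median scaling (adjusted p = 0.0667). On knockdown PSPH, the last step of serine synthesis, fell by 0.49 (adjusted p = 0.0269) and SHMT2, which turns serine into glycine, by 0.42 (adjusted p = 0.0344). Neither passed there without sh-Ctrl replicate 1 (adjusted p = 0.0893 and 0.0900), and PSPH did not pass without replicate 2 either (adjusted p = 0.0510). Of the transporters, SLC1A4, a carrier of neutral amino acids, went from 6.79 and 6.90 in reconstituted to 32.1 and 31.6 in knockout cells, a rise of 2.07 (adjusted p = 0.000572). SLC7A11, which imports cystine for glutathione, rose by 1.63 (adjusted p = 0.00129). SLC7A11 passed in the shRNA set too, upward, when sh-Ctrl replicate 1 was left out (0.76, adjusted p = 0.0346), against 0.48 with it (adjusted p = 0.157).

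Of the tRNA synthetases, NARS, which charges asparagine, rose by 0.36 (adjusted p = 0.00564) and MARS, which charges methionine, by 0.34 in the CRISPR set (adjusted p = 0.00778). MARS did not pass without reconstituted replicate 2 (adjusted p = 0.0547). On knockdown IARS and YARS, which charge isoleucine and tyrosine, fell by 0.44 (adjusted p = 0.0169) and 0.40 (adjusted p = 0.0212). Neither passed without sh-Ctrl replicate 1 (adjusted p = 0.0605 and 0.0679). IARS was higher in knockout cells by 0.31 (adjusted p = 0.0109), but not past the threshold without any one library of that set (adjusted p between 0.0508 and 0.0682). AARS was listed at 0 in 5 libraries and SLC7A1 in 1, so their changes, although plotted, are not read as results. Both genes still count among the tested genes and in the medians of their lists. Among signalling and stress genes, VEGFA, an angiogenic growth factor, had FPKM of 4.78 and 2.98 in sh-Ctrl, 1.32 and 1.43 in knockdown, 1.56 and 1.29 in reconstituted and 15.0 and 14.9 in knockout cells. VEGFA changed in opposite directions, by -1.02 in the shRNA set (adjusted p = 0.0243) and by 2.72 in the CRISPR set (adjusted p = 0.000207). CDKN1A, the cell cycle inhibitor p21, rose by 2.05 in the CRISPR set (adjusted p = 0.00112). EIF4EBP1, a translation inhibitor under mTORC1, fell by 0.33 in the shRNA set (adjusted p = 0.0408), but not without sh-Ctrl replicate 1 (adjusted p = 0.107). MAP1LC3B, an autophagosome protein, was higher in both sets, by 0.32 (adjusted p = 0.0207) and 0.19 (adjusted p = 0.0258). It missed the threshold in the shRNA set without either sh-Ctrl library (adjusted p = 0.0526 and 0.0566), and in the CRISPR set without any one of its libraries (adjusted p between 0.0864 and 0.149) or with median scaling (adjusted p = 0.0596).

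The IRE1-XBP1 and ATF6 branches of the unfolded protein response, which run beside the eIF2 branch, had all 19 genes tested. Knockout cells had 10 higher and 1 lower (57.9%, against 49.9% of all tested genes, median 0.42), where 23.9% of all tested genes passed as higher. In the shRNA set 1 was higher and 1 lower (10.5%, against 12.3%, median 0.09). XBP1, the factor spliced by IRE1, rose in both sets. Its FPKM was 30.4 and 33.7 in sh-Ctrl, 68.3 and 58.3 in knockdown, 21.3 and 22.98 in reconstituted and 76.9 and 77.2 in knockout cells. The rise of XBP1 was 0.96 on the log2 scale in the shRNA set (adjusted p = 0.00613) and 1.75 in the CRISPR set (adjusted p = 0.000103). ERN1, which encodes IRE1 itself, went in opposite directions, by -0.45 in the shRNA set (adjusted p = 0.0281) and by 1.38 in the CRISPR set (adjusted p = 0.000162). Without sh-Ctrl replicate 1 the former did not pass (adjusted p = 0.0711). HYOU1 was listed at 0 in 1 knockdown library.

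**Figure D4:**
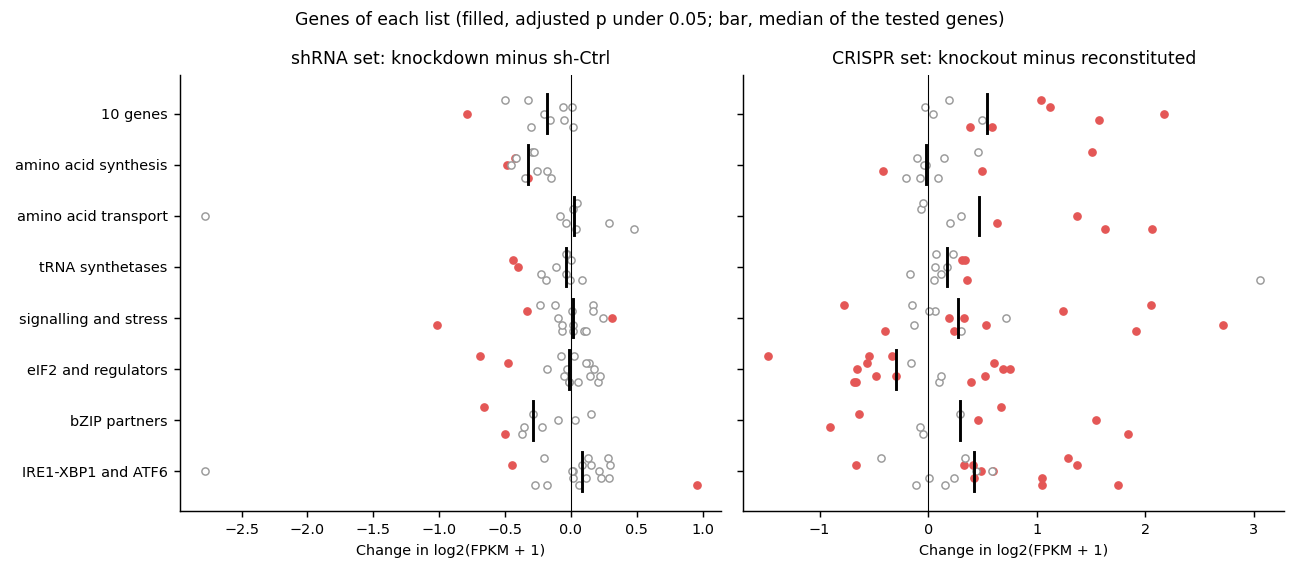
Change in log2(FPKM + 1) of each tested gene of the lists, in the shRNA set (left) and the CRISPR set (right), with filled points for an adjusted p under 0.05 and a bar at the median of the list. The median of the 10 genes is 0.54 in the CRISPR set and -0.18 in the shRNA set. SLC7A1 and HYOU1 (left, near -2.8) and AARS (right, near 3.1) were listed at 0 in 1, 1 and 5 of the 8 libraries.

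The genes whose profile over the 8 libraries was most like that of ATF4 were ZNF490, MARS and HMGB3, among 10541 genes above 0 in every library. Likeness was the root mean square difference between profiles of log2(FPKM + 1), each less its own mean. It was 0.0233 for ZNF490, 0.0323 for MARS and 0.0390 for HMGB3, beside a size of 0.15 for the profile of ATF4 itself. Of the 9 other genes described here ATF3 came nearest (0.207, rank 3042) and ATF5 was farthest (1.26, rank 10424), and the measure also counts how large a profile is. ZNF490 had low FPKM, with means of 0.883 in reconstituted and 1.49 in knockout cells, where log2(FPKM + 1) understates fold changes. Its ratio of knockout to reconstituted cells was 1.69, against 1.31 for ATF4, so its likeness depends on the pseudocount. MARS had FPKM of 94.3 and 85.5 in sh-Ctrl, 86.8 and 93.1 in knockdown, 83.4 and 82.4 in reconstituted and 104 and 106 in knockout cells. MARS is the gene that overlaps DDIT3 on the opposite strand.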

How the data were processed

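RNA-seq of 8 Jurkat libraries was analysed. Per the study's methods, paired-end reads of 100 bp were mapped on hg19 by TopHat 2, and the authors took FPKM from cuffdiff. Their processing notes also name CASAVA 1.8, Bowtie and Cufflinks. The deposited table gives FPKM for 13453 genes in each library. FPKM is scaled for exon length and mapped fragments, so the depth per library is unknown, no interval that needs counts is given, and 2 libraries per condition set the precision. The gene annotation, the strandedness and whether all libraries were quantified together are not given in the sources used here. The deposited FPKM were turned into log2(FPKM + 1), on which fold changes of low genes are understated. Genes averaging an FPKM of 1 or more (11427) were tested with limma 3.58.1 (R 4.3.3), with a mean for each of the 4 conditions, empirical Bayes with trend, two-sided tests and Benjamini-Hochberg adjustment at 0.05. The script was tested on simulated data.

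The members, the lists of pathway genes and the alternatives were chosen with earlier results of these data known, so counts over them are descriptions and no test over a list was made. All 10 genes are named, with TMEM102. From each list the genes past the threshold in the same direction in both sets, up to 2 with the largest change in each set, and the 3 genes nearest to ATF4 in profile are named. SLC7A1, AARS and HYOU1 were named after their values were seen, for their listed zeros. Alternatives were other pseudocounts (0.1 and 5), no filter or a mean FPKM of at least 5, median scaling, quantile normalization, no trend, the replicate number as a block, genes with a listed 0 left out, each set alone, and each library left out. Exon overlaps came from GENCODE release 44 lifted to GRCh37. Promoters came from RefSeq (GRCh38.p14), whose coordinates were not mixed with the other build. Protein sequences were not used here. Figures were drawn with Python 3.11.15 and matplotlib 3.10.9.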

Additional observations from a re-analysis of the deposited data

Results flagged for a closer look

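The change in the shRNA set minus that in the CRISPR set differed from 0 (limma with Benjamini-Hochberg adjustment) for 5 of the 10 genes, by -2.37 for ASNS, -1.54 for DDIT4, -0.89 for TRIB3, -0.84 for ATF5 and -0.37 for ATF4 on the log2 scale. For TMEM102 it was -0.51, which rests on listed zeros in the whole CRISPR set. For the 3 genes nearest to ATF4 in profile it was -0.39 for ZNF490, which did not pass (adjusted p = 0.0524), -0.34 for MARS and -0.40 for HMGB3. These genes were picked for their likeness to ATF4 over the same 8 libraries, so values near its -0.37 follow from the choice and are a description only.

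Among regulators of eIF2, EIF2B3 differed by 0.78, having fallen less in the shRNA set, and PPP1R15A by -0.78. Among bZIP partners, JUND differed by -2.34, JDP2 by -1.52 and JUN by -1.33. In amino acid metabolism and transport, SLC1A4 differed by -2.03, MTHFD2 by -1.80, SLC7A11 by -1.16 and PSPH by -0.47. The tRNA synthetases IARS and YARS differed by -0.75 and -0.57. Among signalling and stress genes, VEGFA differed by -3.73, CDKN1A by -2.29 and EIF4EBP1 by -0.40. In the IRE1 branch, ERN1 differed by -1.83 and XBP1, higher in both sets, by -0.80. The sets differ in how the lines were made as well as in the method of lowering CBAP, and these cannot be told apart.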

How the results depend on the processing

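With all libraries 1408 genes passed in the shRNA set, 5697 in the CRISPR set and 3861 for the difference, with 1, 6 and 5 of the 10 genes among them. No change that passed with all libraries turned its direction. In the shRNA set, values that had not passed changed sign with the control library used: without sh-Ctrl replicate 1 and 2 respectively they were 0.59 and -0.69 for CHAC1, 0.19 and -0.59 for ASNS, 0.43 and -0.42 for SESN2, 0.28 and -0.60 for ATF3, and 0.10 and -0.07 for ATF4, of which CHAC1 and ASNS passed without replicate 2. In the CRISPR set ATF4, TRIB3 and ASNS passed in all 18 alternatives, DDIT4 in 15, CHAC1 and SESN2 in 14 each. ATF5 passed in the shRNA set in 10 of 18. In a fit of the shRNA set alone 75 genes and 0 of the 10 passed, and in one of the CRISPR set alone 7749 genes and 8 of the 10. Both fits use 4 of the 8 libraries. Leaving out 1 library at a time gave 306 (without reconstituted replicate 2) to 2376 genes (without knockdown replicate 2) and 0 to 4 of the 10 in the shRNA set, the 4 without sh-Ctrl replicate 2. It gave 751 genes without sh-Ctrl replicate 1. In the CRISPR set it gave 3376 (without reconstituted replicate 1) to 6847 genes (without knockdown replicate 1), and 3 (without reconstituted replicate 1 or 2 or knockout replicate 2) to 7 of the 10 (without sh-Ctrl replicate 1). For the difference it gave 1849 (without reconstituted replicate 2) to 5149 genes (without knockdown replicate 2) and 2 (without reconstituted replicate 1) to 9 of the 10 (without sh-Ctrl replicate 2). With libraries scaled to the same median FPKM 3 of the 10 passed for the difference, and the cause was not tested.

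Replicate numbers are shared across conditions, but the deviations of same-numbered libraries correlated at 0.146 (shRNA set) and 0.0239 (CRISPR set) over 11427 genes, so they were read as names. With the replicate block 71 genes and 0 of the 10 passed in the shRNA set, and 2285 genes and 2 of the 10 for the difference.

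Of the genes that passed in the shRNA set 29.4% were higher, against 44.1% with median scaling and 50.4% with quantile normalization. The share was 69% among the 71 genes that passed with the replicate block and 77.3% among the 75 of a fit of that set alone, so the majority turned. For the difference 45.9% lay above 0, against 59.5% with median scaling. A pseudocount of 5 lowered the log2 change of VEGFA in the CRISPR set from 2.72 to 1.64 and that of CDKN1A from 2.05 to 1.03. With 2 libraries per condition and unknown depth, a change that did not pass is not shown to be absent.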
